A study of Mus musculus with 10 samples.

Results

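The livers of mice with an autoimmune model of primary biliary cholangitis (PBC) were compared with the livers of untreated mice by RNA-seq of whole tissue. The comparison takes in 7 of the study's 10 libraries, PBC 7, 8 and 9 and controls 1 to 4, which were chosen by their labels and not by any measured value. Of 59408 gene models, 17712 reached at least 10 normalised reads in at least 3 of these 7 livers and were tested. The other 3 libraries, PSC 11, 13 and 14, came from a dietary model of primary sclerosing cholangitis; their values are given where they place a gene of the PBC livers, and they share the estimate of the spread in the fit behind every call.

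All mice were wild-type C57BL/6, each library came from 1 mouse, and all livers were collected at day 35. PBC mice received 100 µg of 2-octynoic acid coupled to bovine serum albumin into the peritoneum, emulsified in complete Freund's adjuvant at day 0 and in the incomplete adjuvant at days 14 and 28. The first 2 of these injections were accompanied by 2 µg of intravenous α-galactosylceramide. Control mice were untreated, so antigen, adjuvants and glycolipid were absent from them together and cannot be told apart. PSC mice ate chow with 0.089% 3,5-diethoxycarbonyl-1,4-dihydrocollidine (DDC) for 2 weeks, ordinary chow for 1 week, and DDC chow for 1 more week. The labels give neither sex nor age.

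Primary biliary cholangitis is an autoimmune disease in which lymphocytes attack the small bile ducts, and antibodies to lipoylated mitochondrial enzymes mark it. 2-Octynoic acid resembles that lipoyl group, and α-galactosylceramide, which CD1d presents, activates invariant natural killer T (NKT) cells, a source of interferon gamma. Interferon gamma acts through JAK kinases and STAT transcription factors, while cytokines of the interleukin-6 family act through STAT3 and make hepatocytes secrete acute phase proteins.

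Values below are the deposited normalised read counts, listed in the order controls 1, 2, 3, 4 and PBC 7, 8, 9. A change is the difference between group means of log2(value + 1), with its standard error (SE), so a change of 1 is a doubling. A gene is called higher or lower where limma's adjusted p, over all genes tested, is below 0.05. A call is named robust where it also held, in the same direction, in edgeR, in a fit of the 7 livers alone and after leaving out each of the 10 libraries in turn. These p-values measure the spread between the livers sampled.

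The control libraries held 38272053 to 69425113 reads and the PBC libraries 44257194 to 51068509. Mitochondrial transcripts took 13.7% of control 2 and 5.97 to 8.67% of the other 6 livers. The label of liver was borne out by Alb, the hepatocytes' main secreted protein, at 4248251 to 6807275 in controls and 6214521 to 8634921 in PBC, and the summed level of 5 hepatocyte markers ran from 8395548 to 9658050 and from 8566412 to 12744131. Markers of neutrophils, Kupffer cells and T cells were higher in PBC livers. None of 5 erythroid markers was called (summed level 52150 to 126453 in controls and 36194 to 85969 in PBC). Of 5 tested blood progenitor markers 2 were higher. The summed level of 5 neutrophil markers was 329 to 6195 in controls and 33528 to 100139 in PBC, with 5 of 5 higher. That of 4 Kupffer cell markers was 23964 to 41807 and 60719.5 to 88166 (4 of 4 higher), and that of 3 T cell markers 186 to 459.8 and 1217 to 1741 (3 of 3 higher). Whether more cells of a type or more RNA per cell gave such a rise cannot be told apart in whole tissue, and the same holds for a fall.

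In PBC livers 1407 genes were higher (7.94% of those tested) and 443 lower (2.50%), while the median change of all genes was 0.0035. Moderate changes, called and between 1.5- and 4-fold, made up most of both sets, with 1067 increases (6.02% of genes tested) and 389 decreases (2.20%). The fit of the 7 livers alone called 776 higher and 96 lower, with 508 moderate increases and 78 moderate decreases. Only 338 increases and 46 decreases exceeded 4-fold. The moderate increases involved genes with a median control level of 416 and a median PBC level of 995, and the moderate decreases went from 1178 to 609. For 2292 genes (12.9%) every PBC liver lay above every control, and for 1248 (7.05%) every PBC liver lay below. Such a lack of overlap held for 1350 of the 1407 higher genes and 401 of the 443 lower genes. Robust calls were fewer, 606 higher (3.42%) and 43 lower (0.243%), and 375 and 33 of them were moderate. The counts moved with single libraries: without PBC 9, 685 genes were higher and 66 lower, and without PBC 8, 1826 and 1575. Leaving out PBC 7 gave 850 higher and 204 lower, and 6 other libraries (controls 1, 3 and 4, and each PSC library) also moved the count of lower genes by over 1.5 times, to 179, 216, 276, 289, 237 and 238 in the order controls 1, 3 and 4 and PSC 11, 13 and 14. Moderate increases and decreases numbered 450 and 40 without PBC 9, 548 and 123 without PBC 7, 647 and 156 without control 1, and the decreases 1346 without PBC 8, 191 and 243 without controls 3 and 4, and 258, 207 and 210 without PSC 11, 13 and 14.

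**Figure D1:**
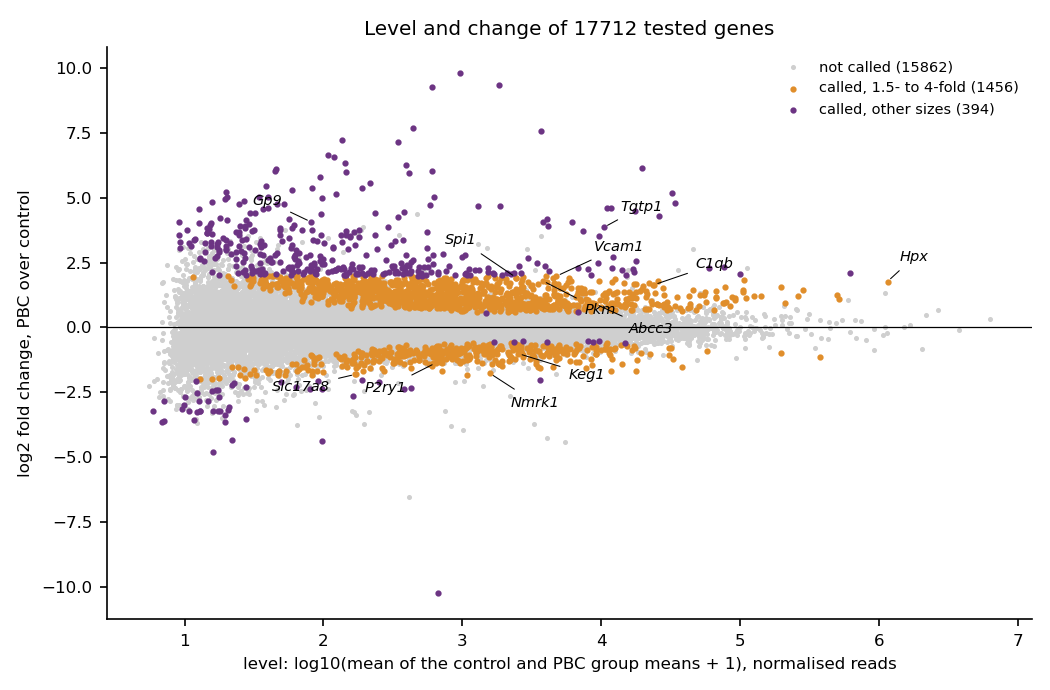
Mean level (log axis, normalised reads) against the PBC minus control change (log2) for the 17712 genes tested; orange points are called genes that changed 1.5- to 4-fold, purple points called genes outside that range, grey points the remainder. The orange points comprise 1067 increases and 389 decreases.

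Against the PSC livers, 197 genes were higher in PBC (1.11%) and 183 lower (1.03%). Among the 1067 moderate increases over controls, 50 were also higher than in PSC livers and 31 were lower than in PSC livers. Among the 389 moderate decreases, 7 were also lower than in PSC livers and 2 were higher. The counts against PSC depend on the few livers: without PSC 14 they were 57 and 39, without PSC 13 71 and 63, without PSC 11 107 and 95, and without PBC 7 the count of higher genes was 99.

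The 3 PBC livers shared the increases more evenly than the decreases. Over the moderate increases the median change of PBC 7, 8 and 9 from the control mean was 1.15, 1.16 and 1.28, and over the moderate decreases it was -1.08, -0.63 and -1.29. PBC 8 stood apart in several gene groups, in both directions. The median over 47 oxidative phosphorylation genes was 0.08 in PBC 7, -0.66 in PBC 8 and 0.20 in PBC 9, and that over 7 major urinary protein genes -0.40, -2.31 and -0.38. In the same order, the median over 27 endothelial genes was -0.12, 0.72 and -0.06, and that over 15 genes of quiescent stellate cells -0.44, 0.49 and -0.57. Complement genes (1.11, 1.12 and 1.16) and class II presentation genes (2.05, 2.34 and 2.04) were close to equal in the 3 livers.

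**Figure D2:**
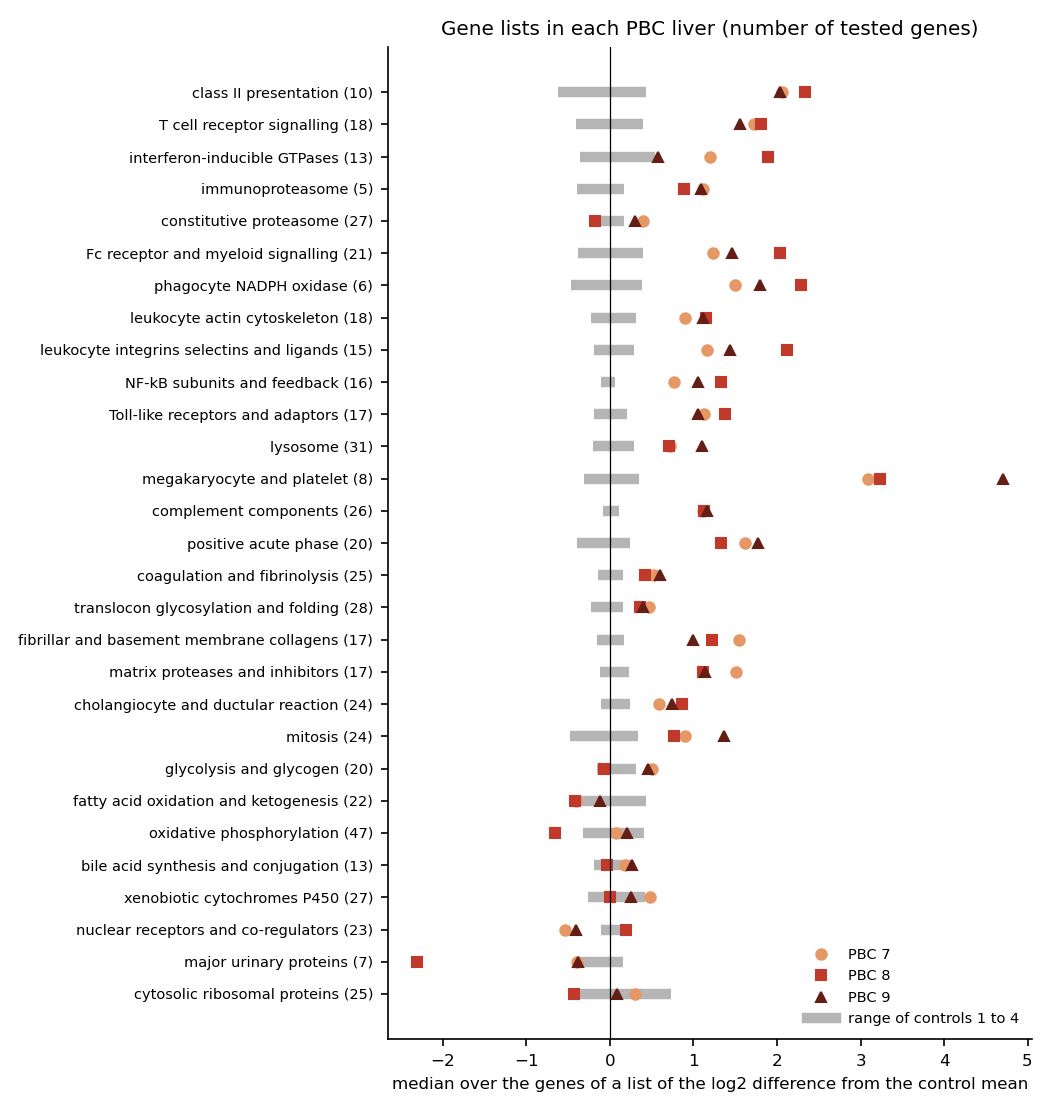
Median log2 change from the control mean over each of 29 gene lists, 1 symbol per PBC liver (circle PBC 7, square PBC 8, triangle PBC 9); the grey bar is the range of the same median in the 4 control livers. Class II, complement and acute phase lists lie right of the control range in all 3 livers, while PBC 8 stands left of the other PBC livers for major urinary proteins and oxidative phosphorylation.

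Kinases and transcription factors of cytokine signalling rose in part, with 4 of 11 tested JAK kinases and STAT factors higher, 3 of them robust, and a median change of 0.26. Stat4, which relays interleukin-12, measured 36.3, 19.2, 43.4 and 45.8 in controls and 129, 126 and 146 in PBC. Every PBC liver was above every control, with a change of 1.93 (SE 0.36 and adjusted p = 0.005). Stat3 measured 1842, 1857, 1012 and 1989.5 and 2760.3, 4068 and 3051, a change of 1.00 (SE 0.24 and adjusted p = 0.0196). The Stat3 call was lost without PBC 9 (adjusted p = 0.0607), in the fit of the 7 livers (0.0572) and under scaling to equal totals (0.0884). Jak3, the kinase of lymphocyte cytokine receptors, rose by 1.32 (SE 0.25 and adjusted p = 0.0049), though its gene model also spans Insl3 and the share of each is uncertain. Jak1 (2836 to 4371 in controls, 3469 to 5992 in PBC) and Stat6 (1824 to 3254 and 3074 to 3879.6) overlapped between the groups and were not called.

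Feedback regulators and targets of these factors included 5 higher genes of 13, 4 of them robust, with a median of 0.80. Socs1, an inhibitor of the interferon gamma receptor's kinases, went from 97.2, 68.0, 102 and 49.98 to 415, 409 and 262. Its change was 2.20 (SE 0.31 and adjusted p = 0.000786), and it also exceeded the PSC livers by 1.51 (SE 0.33 and adjusted p = 0.0331). No gene of the list was higher than in PSC livers without PBC 7, PBC 8 or any 1 PSC library. Socs3, the inhibitor that STAT3 induces, went from 404, 553, 812 and 458 to 1019.6, 2469.5 and 1174, a change of 1.42 (SE 0.31 and adjusted p = 0.0118), and PSC livers held 1768 to 2205. Cebpb, a transcription factor of the acute phase response, rose by 2.15 (SE 0.29 and adjusted p = 0.000671), and the phosphatase Ptpn6 by 1.07 (SE 0.20 and adjusted p = 0.00458). Without control 4, 2 genes of the list were lower. Of 10 interleukin-6 family ligands and receptors, 1 was higher, the ligand oncostatin M (Osm). Osm was near the limit of detection in controls (2.59, 2.57, 5.11 and 2.78) and reached 34.8, 60.5 and 71.9 in PBC, a change of 3.71 (SE 0.55 and adjusted p = 0.0011) that shrank to 2.84 with a pseudocount of 5. The family's receptor subunits Lifr (16285 to 52086 and 21592 to 43426) and Il6st (6104 to 8157 and 7781 to 11344) were not called. Il6ra, the interleukin-6 receptor, was not called either (0.09, SE 0.37 and adjusted p = 0.904), and its gene model spans neighbouring genes, so its level is uncertain.

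Genes of the interferon gamma axis and the GTPases it induces rose in PBC livers. Of 11 axis genes 7 were higher, 5 robust, with a median of 1.58, and of 13 interferon-inducible GTPases, which attack vacuoles that hold microbes, 7 were higher, 5 robust, with a median of 1.31. Because 8 of these GTPase genes have a promoter in the RefSeq table, the stretch that carries the interferon-stimulated response element, the binding motif of interferon regulatory factors, is shown for each of them (GRCm38.p6, 5′ to 3′ on the gene's strand, capitals for the motif). The letters searched were GAAANNGAAA on both strands of the 250 bases before each transcript start. Capitals mark 1 match per stretch. Irgm1 and Gbp3 each held 2 overlapping matches, and the other match is partly in lower case. The stretches lie at chr11:48992296-48992341, minus strand (Tgtp1), chr11:58199504-58199549, plus strand (Igtp), chr11:58214895-58214940, plus strand (Irgm2), chr11:48871423-48871468, minus strand (Irgm1), chr3:142620586-142620631, plus strand (Gbp2), chr3:142496751-142496796, plus strand (Gbp5), chr3:142559981-142560026, plus strand (Gbp3) and chr3:142530265-142530310, plus strand (Gbp7).
Tgtp1: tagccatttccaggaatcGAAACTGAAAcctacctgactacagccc
Igtp: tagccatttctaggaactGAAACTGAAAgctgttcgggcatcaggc
Irgm2: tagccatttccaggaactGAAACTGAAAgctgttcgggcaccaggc
Irgm1: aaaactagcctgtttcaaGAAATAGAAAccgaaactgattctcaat
Gbp2: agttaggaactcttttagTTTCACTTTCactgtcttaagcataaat
Gbp5: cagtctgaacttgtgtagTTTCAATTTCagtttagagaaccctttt
Gbp3: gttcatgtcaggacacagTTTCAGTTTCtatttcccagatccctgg
Gbp7: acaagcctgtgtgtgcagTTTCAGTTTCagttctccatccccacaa
All 8 held the motif, the 4 Gbp genes on the opposite strand, against 3.46% of the 27025 genes with a promoter in that table. Of the 11139 tested genes with a promoter 3.32% held it, as did 5.37% of the 1024 higher genes and 3.77% of the 292 lower genes. The letters TTCNNNGAA of a STAT (GAS) site were also present before 5 of the 8 starts (Gbp5, Gbp7, Igtp, Irgm2 and Tgtp1), against 8.13% of all genes and 7.44% of tested genes. Other lists with promoters in the table held fewer. The response element was found in 0 of 5 immunoproteasome, 1 of 7 class I presentation and 0 of 18 complement genes. GAS letters were found in 0 of 10 JAK and STAT genes and 2 of 12 of their feedback and target genes. They were also found in 3 of 8 interferon gamma axis and 4 of 15 positive acute phase genes.

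The 13 GTPases, of which 8 had a promoter to search, did not all change alike. Tgtp1, counted in 1 gene model with its neighbour Gm12185, measured 2622, 968, 848 and 1104 in controls and 25206, 23494 and 9973 in PBC. It changed by 3.86 (SE 0.38 and adjusted p = 8.6e-05; 3.15 with sample weights), with PBC 9 lowest of the 3, and exceeded PSC livers by 2.71 (SE 0.40 and adjusted p = 0.00419). Igtp went from 10013, 7319, 4146 and 6471 to 24532, 24442 and 17806 (1.73, SE 0.26 and adjusted p = 0.00121) and Irgm1 from 8889, 6629, 3903 and 5624 to 16336, 15940.5 and 12689.6 (1.31, SE 0.24 and adjusted p = 0.00481), each without overlap. Gbp2 rose by 2.11 (SE 0.38 and adjusted p = 0.00372) and Gbp8 by 2.18 (SE 0.34 and adjusted p = 0.00154). Gbp5 was called at 1.85 (SE 0.46 and adjusted p = 0.0243) and reached 754 in PBC 8 against 199 and 193 in the other PBC livers. Without PBC 8 its change was 1.20, and without control 1 or 3 the call was lost (adjusted p = 0.0579 and 0.0592). Irgm2 (8079, 5652, 3898 and 5310.4, then 10452, 14060.4 and 7252, adjusted p = 0.053), Gbp3 (0.88, adjusted p = 0.101), Gbp7 (0.00, adjusted p = 0.997) and Iigp1 (0.68, adjusted p = 0.139) were not called. With 1 library left out, Irgm2 (1.06, adjusted p = 0.0332) and Gbp3 (1.17 and 0.025) were called without control 1, and Irgm2 (1.13 and 0.0425) and Iigp1 (1.03 and 0.0418) without PBC 9. Reads of near-identical family members may be split between these genes, since the labels do not say how such reads were counted. Against PSC livers 6 of the 13 were higher in PBC, and 3 without PBC 8 or without any 1 PSC library. The GTPase median per liver was 1.19, 1.89 and 0.57 in PBC 7, 8 and 9.

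Outside the GTPases, Cxcl9, a chemokine of interferon gamma that draws T cells, went from 3817, 3305, 6496 and 2849 to 21707, 24217 and 13219, a change of 2.29 (SE 0.30 and adjusted p = 0.000555). Irf8, a factor of macrophage and dendritic cell genes, rose by 1.57 (SE 0.25 and adjusted p = 0.00179). Nos2, the inducible nitric oxide synthase, stood at 2.59, 1.28, 0 and 9.72 in controls and 52.2, 79.7 and 25.4 in PBC (3.98, SE 0.78 and adjusted p = 0.00647); the change was 2.78 with a pseudocount of 5 and 4.59 without control 4. Irf1 overlapped (634 to 2512 and 1445 to 3486) and was not called. Of 16 genes that type I interferon induces, 3 were higher, 2 robust, with a median of 0.54. They included Irf7 (1.14, SE 0.21 and adjusted p = 0.00436), a factor for interferon genes, and the oligoadenylate synthetase relative Oasl2 (1.65, SE 0.35 and adjusted p = 0.0105; 1.04 with sample weights). The antiviral genes Ifit3 (2601 to 6729 in controls, 4979 to 6476 in PBC) and Isg15 (2388 to 10359 and 4530.3 to 7371) were not called, though Ifit3 was without control 1 (0.95, adjusted p = 0.0174).

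NF-kB subunits, their regulators and the receptors upstream of them rose as well. Nfkb2, which encodes the precursor of the p52 subunit, measured 495, 483, 452 and 596 in controls and 1763, 1896 and 1847 in PBC, a change of 1.86 (SE 0.19 and adjusted p = 0.000112). The 3 PBC livers were close to each other and all above the controls. Relb, the partner of p52, rose by 1.97 (SE 0.27 and adjusted p = 0.000694), the kinase Ikbke by 1.79 (SE 0.28 and adjusted p = 0.00162) and the inhibitor Tnip1 by 1.29 (SE 0.22 and adjusted p = 0.00279). Nfkbia, the inhibitor that NF-kB itself induces, was called at 0.90 (SE 0.21 and adjusted p = 0.0178), but not without PBC 9 (adjusted p = 0.0747), in the fit of 7 livers (0.0528) or under equal totals (0.0799). Rela (710.1 to 1391 and 1296 to 2078) and the kinase Ikbkb (2095 to 2758 and 1616 to 2581) were not called, though Rela was without control 2 (0.83, adjusted p = 0.0414). The list had 9 of 16 higher, 6 robust, with a median of 0.92.

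Promoter stretches with the NF-kB letters GGGNNTTTCC (both strands, 250 bases before a start, capitals) are shown for 2 regulators and 2 chemokines of these lists that were called higher. They come from RefSeq (GRCm38.p6) at chr19:46305687-46305732, plus strand (Nfkb2, before an inner transcript start), chr12:55492649-55492694, minus strand (Nfkbia), chr5:90891156-90891201, plus strand (Cxcl1) and chr5:90903784-90903829, plus strand (Cxcl2).
Nfkb2: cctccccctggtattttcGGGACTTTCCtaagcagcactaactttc
Nfkbia: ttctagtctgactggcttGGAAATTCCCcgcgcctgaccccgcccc
Cxcl1: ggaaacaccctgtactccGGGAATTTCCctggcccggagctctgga
Cxcl2: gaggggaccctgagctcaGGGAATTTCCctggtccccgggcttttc
Capitals mark 1 match per stretch. Cxcl1 and Cxcl2 each held 2 matches, and the other match of Cxcl1 is in lower case in its stretch. The letters occurred in 3 of 11 NF-kB list genes with a promoter in the table and in 3 of 12 chemokine genes. They occurred in 1.65% of all 27025 genes, 1.75% of the 11139 tested genes with a promoter, 3.32% of higher genes and 3.77% of lower genes.

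Cxcl1, a neutrophil attractant, went from 260.4, 431, 935 and 221 to 4364, 12048 and 6680.2, a change of 4.17 (SE 0.44 and adjusted p = 0.000128) in which the lowest PBC liver exceeded the highest control. Cxcl2, of the same kind, was low throughout (2.59, 0, 12.8 and 2.78 and 22.4, 46.2 and 31.7). It was called at 3.16 (SE 0.72 and adjusted p = 0.0155), but not without PBC 9 (adjusted p = 0.0575) or in the fit of 7 livers (0.0705), and its change was 2.13 with a pseudocount of 5 and 2.53 and 3.79 without controls 2 and 3. Ccl5, Ccl7 and Ccl8, which attract monocytes and T cells, were among the higher chemokines. Ccl5 went from 323, 231, 307 and 194 to 2168, 1649 and 1669.5 (2.81, SE 0.23 and adjusted p = 2.3e-05) and exceeded PSC livers by 1.53 (SE 0.24 and adjusted p = 0.00564), and Ccl7 rose by 3.77 (SE 0.35 and adjusted p = 7.35e-05). Ccl8 went from 2.59, 7.70, 40.9 and 16.7 to 1231, 561 and 649.6 (5.96, SE 0.63 and adjusted p = 0.000144), 5.37 without control 1, 6.55 without control 3 and 7.33 with sample weights. Of 18 chemokines 11 were higher, 8 robust, with a median of 1.72. Of 13 chemokine receptors 6 were higher (3 without PBC 9), 3 robust, with a median of 0.90. They included the T cell receptor for Cxcl9, Cxcr3 (1.73, SE 0.28 and adjusted p = 0.00222), the monocyte receptor Ccr1 (2.37, SE 0.43 and adjusted p = 0.00425) and Cxcr4 (1.61, SE 0.35 and adjusted p = 0.0115), which lost its call without PBC 9 (adjusted p = 0.051).

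Toll-like receptors, which sense microbial products, and their adaptors had 10 of 17 higher, 8 robust, with a median of 1.25. Tlr2, the receptor of bacterial lipoproteins, went from 402, 334, 470.03 and 623 to 1808, 2946 and 1739 (2.24, SE 0.26 and adjusted p = 0.000251). Tlr13, which senses bacterial ribosomal RNA, rose by 1.67 (SE 0.23 and adjusted p = 0.000693), and the lipopolysaccharide carriers Lbp and Cd14 by 1.89 (SE 0.28 and adjusted p = 0.00109) and 2.29 (SE 0.34 and adjusted p = 0.00115). Cd14 was lower than in PSC livers, which held 9367, 6036 and 15039 (difference -1.94, SE 0.36 and adjusted p = 0.0149). No gene of the list was lower than in PSC livers without PBC 7, PSC 11 or PSC 14. Tlr4, the lipopolysaccharide receptor, was not called (504 to 768 and 622 to 1118). Interleukin-1 family and inflammasome genes had 9 of 16 higher, 5 robust and 5 without PBC 9, with a median of 0.94. The secreted inhibitor of interleukin-18, Il18bp, went from 1066, 634, 989 and 1186 to 2889.6, 3547 and 3104 (1.75, SE 0.23 and adjusted p = 0.000599), the decoy receptor Il1r2 from 11.7, 11.6, 33.2 and 5.55 to 119, 94.0 and 243 (3.36, SE 0.53 and adjusted p = 0.00182). The inflammasome adaptor Pycard rose by 1.74 (SE 0.30 and adjusted p = 0.00291) and the protease Casp1 by 1.14 (SE 0.23 and adjusted p = 0.00743).

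Antigen presentation genes of both classes were higher in PBC livers. Class II genes, which present peptides to CD4 T cells, had 9 of 10 higher, 8 robust, with a median of 2.16. Cd74, the invariant chain, went from 5486, 3807, 4516 and 6857 to 25136, 34986 and 31302 (2.58, SE 0.21 and adjusted p = 2.43e-05). H2-Aa went from 4911, 3178, 6634 and 5535 to 21041, 27241 and 21245 (2.23, SE 0.24 and adjusted p = 0.000159), and H2-Eb1 rose by 2.49 (SE 0.24 and adjusted p = 8.44e-05). The peptide exchanger H2-DMa rose by 2.08 (SE 0.21 and adjusted p = 8.98e-05), and Ctss, the protease that degrades the invariant chain, by 1.79 (SE 0.23 and adjusted p = 0.000511). No PBC liver overlapped the controls for these 5 genes, as for 1350 of all 1407 higher genes. H2-Oa, which restrains the exchanger, was called at 1.43 (SE 0.34 and adjusted p = 0.0197), but not without PBC 9 (adjusted p = 0.099), without control 1 (0.0574) or in the fit of 7 livers (0.0513), and its partner H2-Ob was not called (60.3 to 146 and 137 to 234). The median of the list against PSC livers was 0.40. The Kupffer and B cell markers moved with this list (4 of 4 and 2 of 3 higher, the B cell sum from 328 to 498 in controls and 701 to 1024 in PBC), and their part in the result was not tested.

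Class II promoters carry a Y box, the CCAAT-type element of the class II enhanceosome, and its letters CTGATTGG are shown in capitals before the 3 list genes that held them within 250 bases of a start on either strand (RefSeq, GRCm38.p6). They lie at chr17:34287849-34287892, minus strand (H2-Aa), chr17:34305787-34305830, plus strand (H2-Eb1) and chr17:34092315-34092358, plus strand (H2-Oa).
H2-Aa: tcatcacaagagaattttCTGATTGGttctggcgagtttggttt
H2-Eb1: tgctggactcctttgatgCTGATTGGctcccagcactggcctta
H2-Oa: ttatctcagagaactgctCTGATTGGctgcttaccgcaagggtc
The table holds promoters of 7 of the 10 list genes. The letters were present before 4.43% of all genes and 6.07% of the 11139 tested genes with a promoter. Among these, 6.06% of the higher genes and 9.59% of the lower genes held them.

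Class I presentation had 5 of 9 higher, 3 robust, with a median of 0.94, and 3 higher without any 1 of controls 1 and 4 and PBC 7 and 9. Tap1, which pumps peptides into the endoplasmic reticulum, went from 1294, 856, 948 and 999.6 to 3785, 4765 and 3039 (1.91, SE 0.21 and adjusted p = 0.000204) and exceeded PSC livers by 1.41 (SE 0.23 and adjusted p = 0.00697). Without PSC 14, Tap1 was not called against PSC livers. Its partner Tap2 rose by 1.59 (SE 0.19 and adjusted p = 0.000311) and the loading factor Tapbp by 1.23 (SE 0.25 and adjusted p = 0.0082). B2m, the shared light chain, was not called although every PBC liver was above every control (166148 to 214614 and 281725 to 361710.2, adjusted p = 0.06), and it was called in edgeR (adjusted p = 0.0472) and without PBC 8 (0.0384). Proteasome subunits parted by type. Of 5 immunoproteasome genes, the interferon-induced subunits that replace constitutive ones, 4 were higher, 3 robust, with a median of 1.09. Psmb8 went from 6179, 3870.1, 5204 and 4883 to 10711, 10480.4 and 10607 (1.09, SE 0.18 and adjusted p = 0.00256), with PBC livers almost level. Psmb9 rose by 1.32 (SE 0.27 and adjusted p = 0.00886) and Psmb10 by 1.17 (SE 0.19 and adjusted p = 0.00237). The activator Psme1 was called at 0.80 (SE 0.21 and adjusted p = 0.0283), but not without PBC 7 (adjusted p = 0.118), PBC 9 (0.112), control 1 (0.0661) or control 2 (0.0541). Of 27 constitutive subunits and lids 2 were higher, the base subunits Psmd1 (0.71, SE 0.20 and adjusted p = 0.0368) and Psmd2 (0.68, SE 0.20 and adjusted p = 0.0462), with a median of 0.18. None of the 27 was called without any 1 of controls 1 and 3, PBC 7 and 9 and the PSC libraries, 1 was without control 4, and 5 were without PBC 8.

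**Figure D3:**
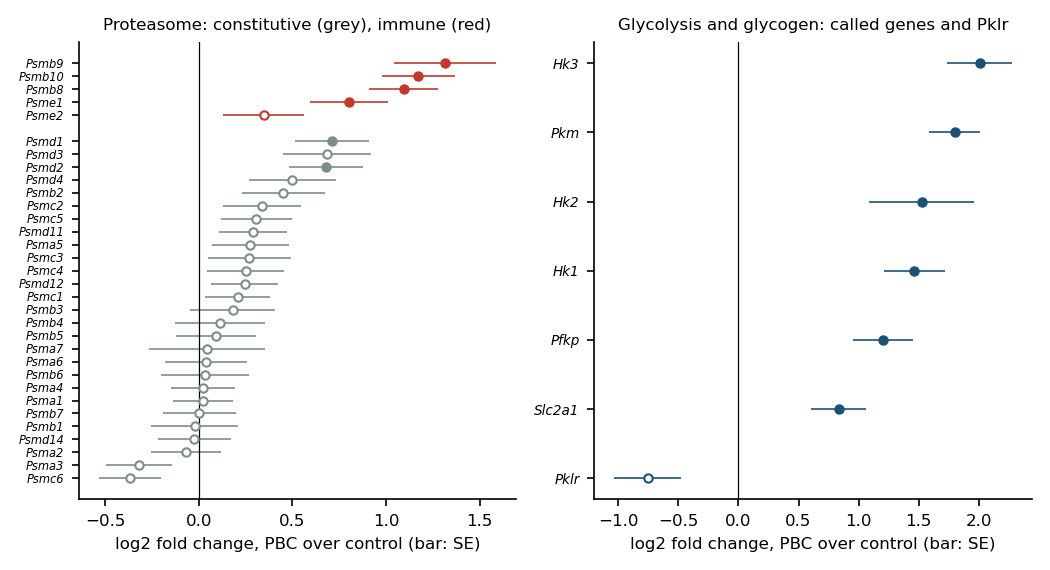
PBC minus control change (log2, bars SE) of single genes; left, proteasome subunits, constitutive in grey and interferon-induced in red; right, the called genes of glycolysis and glycogen and Pklr. Filled points were called and open points were not. The immune subunits Psmb8, Psmb9 and Psmb10 lie above 1, and the constitutive subunits lie below 1.

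Genes of macrophages and granulocytes rose. Fc receptor and myeloid signalling genes had 17 of 21 higher, 12 robust, with a median of 1.62. Spi1, the transcription factor PU.1 of these cells, went from 1049, 823, 966 and 1263 to 3571, 3567 and 4458 (1.92, SE 0.20 and adjusted p = 0.000103), with all PBC livers above all controls. Fcer1g, the signalling chain of Fc receptors, rose by 1.81 (SE 0.22 and adjusted p = 0.000316), the phospholipase Plcg2 by 2.11 (SE 0.27 and adjusted p = 0.000431) and the cytokine receptor Csf2ra by 1.54 (SE 0.21 and adjusted p = 0.000743). The phagocyte NADPH oxidase, which makes superoxide, had 5 of 6 genes higher, 4 robust, with a median of 1.65. Its GTPase Rac2 went from 382, 371, 439 and 546 to 1579, 2202 and 2361 (2.23, SE 0.24 and adjusted p = 0.000168) and exceeded PSC livers by 1.22 (SE 0.26 and adjusted p = 0.029). Without PBC 8, PBC 9, PSC 13 or PSC 14 no oxidase gene was higher than in PSC livers. The subunits Ncf4 and Cyba rose by 2.00 and 1.73 over controls (adjusted p = 0.000232 and 0.00126). The catalytic subunit Cybb measured 326, 107, 235 and 562 and 338, 1633 and 281, was highest in PBC 8 and was not called (adjusted p = 0.278).

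Adhesion and movement genes of leukocytes rose with them. Of 15 integrins, selectins and ligands 9 were higher, 8 robust, with a median of 1.67. Itgb2, the common chain of leukocyte integrins, went from 575, 492, 490.5 and 965 to 1915, 3024 and 2296 (1.97, SE 0.28 and adjusted p = 0.000809). The selectin ligand Selplg rose by 2.26 (SE 0.23 and adjusted p = 9.95e-05) and Itgb7, a gut-homing integrin chain, by 2.12 (SE 0.29 and adjusted p = 0.000628). Vcam1, the endothelial and macrophage ligand of such integrins, went from 1705, 1629, 2133 and 2287 to 6841, 8081 and 7833 (1.98, SE 0.19 and adjusted p = 8.44e-05). Of 18 actin regulators 12 were higher, 8 robust, with a median of 1.18, among them the capping protein Capg (2.01, SE 0.22 and adjusted p = 0.00019), coronin Coro1a (1.74, SE 0.28 and adjusted p = 0.00183) and the integrin activator Fermt3 (1.77, SE 0.29 and adjusted p = 0.00225). Lysosome genes had 15 of 31 higher, 5 robust, with a median of 0.77, and 5 higher without PBC 9. Laptm5, a lysosomal protein of blood cells, rose by 1.88 (SE 0.27 and adjusted p = 0.000849), the macrophage protein Cd68 by 1.74 (SE 0.26 and adjusted p = 0.00131), and the proteases Lgmn and Ctsb by 1.36 (SE 0.22 and adjusted p = 0.00178) and 1.14 (SE 0.22 and adjusted p = 0.00548). Ctsl, a protease of the same compartment, was not called (49552 to 70512 and 72547 to 127205). The neutrophil and Kupffer cell markers given above rose with these 5 lists; their part in the result was not tested. Without PBC 8, 1 lysosome gene was lower.

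Complement genes had 16 of 26 higher, 13 robust, with a median of 1.20. C1qb and C1qc, the macrophage-made starters of the classical pathway, went from 12858, 8608, 13761 and 11748 to 33882, 35386 and 39451 (1.64, SE 0.19 and adjusted p = 0.000272) and from 8924, 6729.9, 8008 and 10295 to 23694, 27594 and 29480.03 (1.68, SE 0.20 and adjusted p = 0.000272). C4b, made by hepatocytes, went from 38054, 48325, 36598 and 30713 to 180393, 113371 and 193619.8 (2.06, SE 0.23 and adjusted p = 0.000215), and its near-identical paralog makes that value uncertain. C3, the central component, rose by 1.82 (SE 0.29 and adjusted p = 0.00182) and C6 of the membrane attack complex by 1.71 (SE 0.21 and adjusted p = 0.000359). The lectin Mbl2 overlapped (113648 to 129402 and 118294 to 124383). The inhibitor Cfi did not overlap (53231 to 62599 and 76840.2 to 78261) and was not called (adjusted p = 0.111).

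T cell genes were higher in PBC livers than in both other groups. Of 18 genes of T cell receptor signalling 12 were higher than in controls, 9 robust, with a median of 1.67, and 9 were higher than in PSC livers, with a median of 1.71. Lat, the adaptor that T cell receptors phosphorylate, measured 59.6, 86.0, 105 and 63.9 in controls, 475, 236 and 425 in PBC and 95.7, 102 and 135 in PSC livers. Its change was 2.23 from controls (SE 0.32 and adjusted p = 0.000906) and 1.72 from PSC (SE 0.34 and adjusted p = 0.02). Cd3g, a chain of the receptor complex, measured 97.2, 141, 130.3 and 101, then 346, 333 and 345, and 93.8, 87.3 and 136 in PSC (1.55 and 1.71, adjusted p = 0.00261 and 0.00697). The adaptor Skap1 rose by 1.92 (SE 0.31 and adjusted p = 0.00219) and the surface protein Thy1 went from 224, 221, 222 and 183 to 749, 742 and 700.4 (1.78, SE 0.20 and adjusted p = 0.000215). The kinase Zap70 was not called (949.9 to 1954 and 618 to 1639). The count against PSC was 4, 5, 4, 4 and 2 when PBC 7, PBC 9 or PSC 11, 13 or 14 was left out, in that order. The summed level of 3 T cell markers, 1217 to 1741 in PBC, was 262 to 286 in PSC livers and moved with this list; its part in the result was not tested.

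Cytotoxic granule genes had 4 of 9 higher, all 4 robust, with a median of 1.37. Nkg7, a granule membrane protein of killer cells, went from 150.3, 167, 199 and 168 to 828, 658 and 884 (2.20, SE 0.22 and adjusted p = 8.71e-05) and Gzmb, the death-inducing granzyme, from 35.0, 41.1, 63.9 and 59.7 to 269, 479.6 and 313 (2.80, SE 0.32 and adjusted p = 0.000215). Both also exceeded PSC livers, by 1.62 (SE 0.23 and adjusted p = 0.00332) and 2.07 (SE 0.34 and adjusted p = 0.00731). Ctsw and Gzma rose by 1.98 (SE 0.29 and adjusted p = 0.00107) and 1.37 (SE 0.27 and adjusted p = 0.0067). Genes of NKT cells and the glycolipid response had 3 of 11 higher (1 without control 1 or PBC 7), 1 robust, with a median of 0.73. The robust one was Cd160, a receptor of NKT, NK and CD8 cells, which went from 49.2, 42.4, 58.8 and 40.3 to 259, 223 and 216 (2.27, SE 0.30 and adjusted p = 0.000599) and stood at 52.5, 72.8 and 41.1 in PSC livers. Cd1d1, which presents α-galactosylceramide, was not called (17529 to 21361 and 13709.6 to 19697).

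Platelet and megakaryocyte genes had 7 of 8 higher, 5 robust, with a median of 3.73, and the summed level of 4 megakaryocyte markers was 353 to 544 in controls and 932 to 2823 in PBC. Ppbp, a platelet chemokine, went from 23.3, 39.8, 35.8 and 22.2 to 313, 268 and 1083 (3.89, SE 0.53 and adjusted p = 0.000628; 3.26 without PBC 9). Gp9 and Gp1bb, subunits of the platelet von Willebrand factor receptor, went from 2.59, 8.99, 10.2 and 11.1 to 117, 92.4 and 249.7 (4.07, SE 0.53 and adjusted p = 0.000516) and from 0, 5.13, 0 and 2.78 to 52.2, 49.4 and 243 (5.31, SE 0.87 and adjusted p = 0.00221). PBC 9 was highest for all 3 genes. The Gp1bb change was 4.56 without PBC 9 and 3.78 with a pseudocount of 5, and sample weights gave 6.06 for Gp1bb and 4.95 for Gp9. Pf4, another platelet chemokine, rose by 1.73 (SE 0.31 and adjusted p = 0.00406), and Itga2b, the integrin of the same cells, was not called (168 to 289 and 234 to 707) except without PBC 8 (1.21, adjusted p = 0.0244). Of 8 blood progenitor genes 4 were higher, 1 robust, and 1 or 2 were higher without any 1 library other than controls 3 and 4 and PBC 8. None of 9 erythroid genes was higher in limma (1 at an unadjusted p below 0.05, 0 in edgeR and DESeq2). The transferrin receptor Tfrc of this list was lower (-2.02, SE 0.50 and adjusted p = 0.023), also in edgeR and DESeq2, but not without control 4 or PBC 9 or in the fit of 7 livers (adjusted p = 0.0535).

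Acute phase proteins, which hepatocytes secrete, rose in PBC livers. Of 20 positive acute phase genes 16 were higher, 12 robust, with a median of 1.504. Hp, which binds free haemoglobin, went from 253148, 219071, 243493 and 231175 to 1045335, 890460.3 and 1082392 (2.08, SE 0.25 and adjusted p = 0.000291), and Hpx, which binds free haem, from 519882, 452673, 674781 and 459740.4 to 1970680.00, 1557098 and 1818733 (1.77, SE 0.29 and adjusted p = 0.00211). The copper ferroxidase Cp rose by 1.41 (SE 0.25 and adjusted p = 0.00335). Hamp, the iron hormone that interleukin-6 induces, was counted in this group and was not called (121960.00, 214378, 229443 and 262519, then 97514, 120268 and 137578, adjusted p = 0.11) except, as lower, in DESeq2 (-0.86, adjusted p = 0.0234) and without control 1 (adjusted p = 0.0496). Without control 1, 1 gene of the group was lower. Of 25 coagulation genes 7 were higher, none robust, with a median of 0.58. Fga, the fibrinogen α chain, was called at 1.24 (SE 0.31 and adjusted p = 0.025), but not without PBC 7 (adjusted p = 0.0835), PBC 9 (0.11), control 1 (0.0534) or control 3 (0.0503). The coagulation count was 0 without PBC 9, 1 without PBC 7 or control 1, 2 without control 3, 4 without PSC 11 or 13 and 3 without PSC 14, and without PBC 8 3 genes were lower.

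Carrier proteins of plasma gave 1 call in each direction. Of 12 tested, Fetub, an inhibitor of an egg-coat protease, was called higher (0.89, SE 0.24 and adjusted p = 0.0328) and Sepp1, the selenium carrier, lower (-1.14, SE 0.30 and adjusted p = 0.029). Sepp1 measured 523356, 364411, 700888 and 473642 in controls and 197641, 321515 and 185355 in PBC, all below the lowest control. Neither call was robust: without PBC 7, PBC 9, control 1 or control 3 none of the 12 was called in either direction, the higher call was also lost without PSC 13 or 14, and without control 4, 2 were higher. Endoplasmic reticulum genes of translocation and folding had 5 of 28 higher, none robust, with a median of 0.39. The count was 11 without control 2, 9 without PBC 8, 3 without control 3, control 4 or PSC 14, 1 without control 1 and 0 without PBC 7 or PBC 9. Pdia4, a disulphide isomerase, was called at 0.92 (SE 0.20 and adjusted p = 0.0124), but not without PBC 7 (adjusted p = 0.0621) or PBC 9 (0.0525). The chaperone Hspa5 and the factor Xbp1 of the unfolded protein response were not called (0.42, SE 0.24 and adjusted p = 0.295 and -0.31, SE 0.28 and adjusted p = 0.517). Of 18 genes of the unfolded protein and integrated stress response 2 were higher, 1 robust, against 7.94% of all genes tested. Their median was 0.78, with 14 changes above 0 and 4 below, and the count ran from 1 to 4 with 1 library left out.

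Hepatocyte identity factors and the enzymes of bile acid, fat and energy metabolism were mostly not called. Of 15 hepatocyte identity genes 2 were higher, among them the urea cycle enzyme Cps1 (0.96, SE 0.23 and adjusted p = 0.0193), and 1 was lower, the transcription factor Foxa2 (-0.91, SE 0.27 and adjusted p = 0.0497). Cps1 lost its call without PBC 7 (adjusted p = 0.0741), PBC 9 (0.107) or control 1 (0.0562). The Foxa2 call was kept without control 3 or PBC 7 and lost without each of the other 8 libraries (adjusted p = 0.0658 to 0.196). Without PBC 9 no gene of the list was called, without PBC 7 or control 1, 3 or 4, 1 was higher, and without control 1, control 2 or any 1 PSC library none was lower. Hnf4a, the master factor of these cells, was not called and overlapped (6089.9 to 10523 and 4029 to 10045; adjusted p = 0.354). PBC 8 was the highest of the 3 PBC livers for Hnf4a, and without it the gene was called lower at -0.82 (adjusted p = 0.0313).

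None of 13 bile acid synthesis genes was called in limma (2 higher and 1 lower at an unadjusted p below 0.05, 0 in edgeR, 1 and 1 in DESeq2), with a median of 0.13. Cyp7a1, the rate-limiting enzyme, measured 6239.7, 4469.5, 1701 and 15962 and 1763, 4514 and 1498, with control 4 highest and controls 2 and 3 in the range of the PBC livers. Slc27a5, which activates bile acids for conjugation (0.78, SE 0.25 and adjusted p = 0.0649), and Cyp2c70, which makes muricholic acids (0.62, SE 0.29 and adjusted p = 0.196), were not called. Slc27a5 was called higher without control 4 (0.92, adjusted p = 0.0385) or PBC 8 (1.07 and 0.00754). Without PBC 8, 2 of the 13 were higher and 1 lower, without control 4, 1 was higher, and without control 2, 1 was lower. Among 18 transporters, Abcc3, the basolateral exporter of conjugates, went from 5275, 7124, 6371 and 6479 to 11591, 11226 and 12548 (0.91, SE 0.16 and adjusted p = 0.00416) and was the robust call. Abcg8, a canalicular sterol exporter, was called at 0.80 (SE 0.20 and adjusted p = 0.0266), and exceeded PSC livers by 1.34 (SE 0.22 and adjusted p = 0.00697). Its call against controls was lost without PBC 7 (adjusted p = 0.0679), PBC 9 (0.122), control 1 (0.0719) or control 4 (0.0512). Slco1b2, a basolateral uptake carrier, fell by 0.78 (SE 0.22 and adjusted p = 0.0372), and its call was lost in edgeR (adjusted p = 0.0514) and without PBC 7 (0.156), PBC 9 (0.148), control 1 (0.0883), control 4 (0.0734), PSC 13 (0.0576) or PSC 14 (0.061). The bile acid uptake carrier Slc10a1 was not called (47468 to 73349 and 34403 to 69888), nor was Slco1a1, which measured 6374, 4304, 4562 and 159.7 in controls and 1296, 68.5 and 417 in PBC (-2.66, adjusted p = 0.146). Control 4 lay far under the other controls for Slco1a1, and without it the gene was called lower at -3.90 (adjusted p = 0.00615). Without PBC 8 the transporters gave 4 higher and 2 lower.

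No gene of 22 in fatty acid oxidation and ketogenesis was called in limma (4 lower at an unadjusted p below 0.05, 0 in edgeR, 3 lower in DESeq2), although 18 of 22 changes were below 0 and the median was -0.35. Without PSC 11 or PSC 13, 1 was lower. Ppara, the receptor that drives this pathway, was not called (2412, 2607, 3288 and 4797, then 1795, 2339 and 2137, adjusted p = 0.165), though no PBC liver reached the lowest control. Among 47 oxidative phosphorylation genes none was called in limma (2 lower at an unadjusted p below 0.05, 0 in edgeR, 1 lower in DESeq2), with a median of -0.14, and without PBC 8, 1 was higher. Of 20 glycolysis and glycogen genes 6 were higher, 4 robust, with a median of 0.35, and the 4 robust ones are isoforms of cells other than hepatocytes. Pkm, the pyruvate kinase of most non-hepatic cells, went from 1738, 1312, 1729 and 1985 to 5199.8, 5490.3 and 6953 (1.80, SE 0.21 and adjusted p = 0.000274). The hexokinases Hk3 and Hk1 rose by 2.01 (SE 0.27 and adjusted p = 0.000615) and 1.46 (SE 0.25 and adjusted p = 0.00307) and Pfkp, a platelet-type phosphofructokinase, by 1.20 (SE 0.25 and adjusted p = 0.00902). The hepatocyte counterpart of Pkm, liver pyruvate kinase Pklr, was not called (8342, 10685, 16313 and 22438, then 8055, 7084 and 8832) except, as lower, in DESeq2 (-0.90, adjusted p = 0.0226) and without control 1 (-0.99 and 0.039). Without control 1, control 2 or PBC 8, 1 gene of the list was lower. The leukocyte markers given above moved with these isoforms; their part in the result was not tested.

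Drug-metabolising genes moved in both directions. Cyp2b10, a target of the receptor CAR, went from 848, 306, 636 and 1265 to 8928, 13539 and 12516 (4.08, SE 0.43 and adjusted p = 0.000135) and exceeded PSC livers (2042, 684 and 1351) by 3.21 (SE 0.46 and adjusted p = 0.00332). Cyp2c29 and Cyp2c50 rose by 1.37 (SE 0.22 and adjusted p = 0.00216) and 1.18 (SE 0.19 and adjusted p = 0.00206), and the first shares its gene model with a pseudogene. Cyp2c39 went from 1372, 720.1, 909 and 997 down to 400.4, 475 and 289.9, a change of -1.35 (SE 0.26 and adjusted p = 0.00524). Cyp3a11, the main drug oxidase, was not called although all PBC livers were above all controls (153700.4 to 221513 and 226276 to 259944, adjusted p = 0.205). Of 27 cytochromes P450, 5 were higher and 2 lower, 3 and 1 robust, with a median of 0.18, and 7 were higher than in PSC livers (3 without PSC 13 or PSC 14). Higher calls were 3 without PBC 9, 8 without control 4 and 9 without PBC 8, and lower calls 1 without PBC 7 or PBC 9. Of 16 sulfotransferases 2 were lower, neither robust. Sult2a8, a bile acid sulfotransferase, fell by 1.51 (SE 0.44 and adjusted p = 0.0465) and Sult3a1 by 1.68 (SE 0.44 and adjusted p = 0.0296), or by 2.29 without PBC 7. None of the 16 was lower without control 1, control 3 or PBC 9, 1 was without control 4, PBC 8 or PSC 13. Without PBC 7, 1 was higher, and without PBC 8, 2 were. Sult3a1 was higher than in PSC livers, which held 105, 154 and 199, by 5.11 (SE 0.47 and adjusted p = 0.0002).

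Iron genes had 6 of 22 higher, 4 robust, and 1 lower, with a median of -0.01. Beside Hp, Hpx and Cp, Atoh8, a regulator of Hamp, rose by 1.36 (SE 0.22 and adjusted p = 0.00204), and the ferritin chain Fth1 was not called (163229 to 231160.1 and 190926 to 318191). The lower one was the transferrin receptor Tfrc (203, 266, 271 and 419, then 89.5, 151 and 23.3), which lost its call without PBC 9 (adjusted p = 0.0679, a change of -1.26) or control 4 (0.0516). Without control 1 or PBC 8, 2 genes of the list were lower. Of 22 cholesterol synthesis genes 1 was called, the reductase Hsd17b7, lower at -1.82 (SE 0.38 and adjusted p = 0.00977), though not without PBC 9 (adjusted p = 0.0607), and -2.44 with sample weights; without PBC 7, 2 were lower, and without PBC 8, 1 was higher. All 7 major urinary protein genes had changes below 0 (median -0.78) and 1, Mup21, was called lower (-1.23, SE 0.34 and adjusted p = 0.0366), though none was without control 1, control 3, PBC 8 or any 1 PSC library. Mup3 measured 361253, 441317, 563540.00 and 358057 and 310337, 149264 and 324824 and was not called. Reads of these near-identical genes cannot be assigned with certainty. Mup20 was not called against controls and was lower than in PSC livers (457218 to 525359, difference -5.12, SE 0.31 and adjusted p = 3.37e-06). The median of the 7 genes against PSC livers went the other way, at 1.71. None of them was called higher than in PSC livers, and 3 were without PBC 8.

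Of 17 clock genes 3 were higher (1 without PBC 9), 1 robust, with a median of 0.0022, and without PBC 8, 2 were lower. The repressor Bhlhe40 went from 8459.95, 13392, 12946 and 9878 to 20755, 28092 and 24311 (1.14, SE 0.20 and adjusted p = 0.00338). Nfil3 rose by 1.51 (SE 0.36 and adjusted p = 0.0187) and Nr1d1 by 1.60 (SE 0.41 and adjusted p = 0.0265), and without PBC 9 neither was called (adjusted p = 0.1 and 0.0953); Nr1d1 was not called without PBC 7 (0.078) or control 1 (0.0682) either. The clock output factor Dbp ranged over 97.2, 35.9, 1264 and 8406 in controls against 164, 242 and 260.3 in PBC, so single control livers differed more than the groups. The labels give no time of day for the collection. Of 16 genes of the growth hormone and IGF1 axis none was called in limma (1 higher and 1 lower at an unadjusted p below 0.05, 0 in edgeR, 1 lower in DESeq2), and Igf1 measured 70269.6 to 98771 and 44315 to 86783. Without PBC 8, 2 of them were higher, without control 4, 2 were lower, and without PBC 7, 1 was lower.

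Matrix genes rose in PBC livers and stood lower than in PSC livers. Collagens had 13 of 17 higher than in controls, 9 robust, with a median of 1.25, and 8 lower than in PSC livers (5 without PSC 11, 4 without PSC 14). Col1a1, the main fibrillar collagen, measured 279.8, 105, 86.8 and 125 in controls, 1919.8, 668 and 649.6 in PBC and 4793, 4542 and 6053 in PSC livers. It rose by 2.80 from controls (SE 0.42 and adjusted p = 0.00116), with PBC 7 highest, and was lower than in PSC livers (difference -2.43, SE 0.45 and adjusted p = 0.0129). Col1a2 and Col5a2 rose by 1.92 (SE 0.25 and adjusted p = 0.000517) and 1.67 (SE 0.24 and adjusted p = 0.000882), and differed from PSC livers by -1.99 (SE 0.27 and adjusted p = 0.00242) and -1.61 (SE 0.25 and adjusted p = 0.00612). Col4a1 and Col4a2, chains of basement membrane, went from 253, 266, 217 and 236 to 706, 706 and 703 (1.54, SE 0.19 and adjusted p = 0.00041) and from 615, 670.04, 485 and 436 to 1967, 1479 and 2053 (1.74, SE 0.21 and adjusted p = 0.000282). Of 17 matrix proteases and inhibitors 9 were higher, 7 robust, with a median of 1.34. Timp1, a protease inhibitor, went from 54.4, 15.4, 40.9 and 30.5 to 811, 551 and 586 (4.28, SE 0.40 and adjusted p = 7.35e-05) and the macrophage elastase Mmp12 from 32.4, 14.1, 38.3 and 45.8 to 296, 344 and 163 (3.04, SE 0.39 and adjusted p = 0.000463). The leukocyte proteases Adam8 and Mmp9 rose by 3.07 (SE 0.41 and adjusted p = 0.000599) and 2.59 (SE 0.38 and adjusted p = 0.00104). The list had 6 genes lower than in PSC livers, 2 without PBC 9, PSC 13 or PSC 14 and 3 without PSC 11, and Mmp12 reached 3160.4 to 5666 there.

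Of 31 myofibroblast and crosslinking genes 9 were higher (5 without PBC 7), 5 robust, with a median of 0.43, and without PBC 8, 3 were lower. They included transglutaminase Tgm2 (1.61, SE 0.22 and adjusted p = 0.000718), the cytokine Tgfb1 (1.45, SE 0.21 and adjusted p = 0.00102), its activator Thbs1 (2.61, SE 0.40 and adjusted p = 0.00146) and the intermediate filament Vim (1.26, SE 0.23 and adjusted p = 0.00439). The summed level of 3 stellate cell markers ran from 2179.6 to 4551 in controls and 2588 to 5016 in PBC. Bile duct genes had 8 of 24 higher, 4 robust, with a median of 0.53 and a median of -1.38 against PSC livers, where 8 were lower in PBC (5 without PSC 13, 4 without PSC 14). Higher calls against controls were 4 without PBC 9 and 5 without control 1, PBC 7, PSC 13 or PSC 14, and without PBC 8, 1 was lower. Krt8 and Krt18, keratins of hepatocytes and ducts, went from 12115, 11133, 9748 and 8112 to 29217, 21718 and 31841 (1.42, SE 0.21 and adjusted p = 0.00127) and from 14628, 12608, 11138 and 8089.9 to 35849, 23319 and 33299 (1.42, SE 0.23 and adjusted p = 0.00225). The duct factor Sox9 rose by 1.41 (SE 0.29 and adjusted p = 0.00954) and the epithelial factor Elf3 by 1.90 (SE 0.36 and adjusted p = 0.00524). Krt19, the duct keratin, measured 234, 100.1, 225 and 205 and 440.2, 484 and 294 and was called at 1.13 (SE 0.33 and adjusted p = 0.0453); leaving out PSC 11 was the only omission of 1 library that kept the call. Osteopontin (Spp1), a product of ductular reactions, was not called against controls (7014 to 12348 and 8905 to 12501) and was lower than in PSC livers (50963 to 91721; difference -2.72, SE 0.27 and adjusted p = 0.000321). The summed level of 4 duct markers was 461 to 799.6 in controls, 1033 to 1179 in PBC and 2819 to 2965 in PSC livers.

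Of 27 endothelial genes 5 were higher, 1 robust, with a median of 0.21. The robust one was the venular chemokine receptor Ackr1 (84.2, 95.0, 128 and 183, then 333, 379 and 415, 1.67, SE 0.29 and adjusted p = 0.00329), and Clec1b, a receptor of sinusoidal and myeloid cells, rose by 1.09 (SE 0.22 and adjusted p = 0.00799) but not without PBC 9 (adjusted p = 0.0537). The count was 1 without PBC 9, 2 without control 1 or PBC 7 and 3 without control 2 or 3, and without control 2, 1 was lower. Kupffer cell and platelet markers rose along with Clec1b, and their part in its rise was not tested. The sinusoidal genes Stab2 (74.1 to 114 and 84.6 to 147) and Clec4g (6861 to 12073 and 4511 to 8379) were not called. Lpl, the lipase of capillaries and macrophages, rose by 2.02 (SE 0.29 and adjusted p = 0.000972), the 1 call among 20 genes of lipoprotein handling (without PBC 7, 1 was also lower).

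Ranked by adjusted p among those in which no PBC liver overlapped a control, the 12 leading moderate increases were Vcam1, Spi1, Nfkb2, Rhbdf2, Tap1, Vill, Thy1, Slc15a3, C1qc, C1qb, Pkm and Col4a2. Each was robust. Rhbdf2, a partner of the protease that releases TNF, went from 504, 703, 519 and 429 to 1895, 1754 and 2137 (1.86, SE 0.21 and adjusted p = 0.000189). Vill, a villin-like actin binder, went from 89.4, 101, 118 and 107 to 323, 462 and 480.3 (2.00, SE 0.23 and adjusted p = 0.000215), and Slc15a3, a lysosomal peptide carrier, from 510.4, 426, 421 and 416 to 1435, 1743 and 1511 (1.81, SE 0.21 and adjusted p = 0.000251). Against PSC livers, Tap1 (not without PSC 14) and Thy1 were higher in PBC, Col4a2 was lower, and the other 9 were not called.

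**Figure D4:**
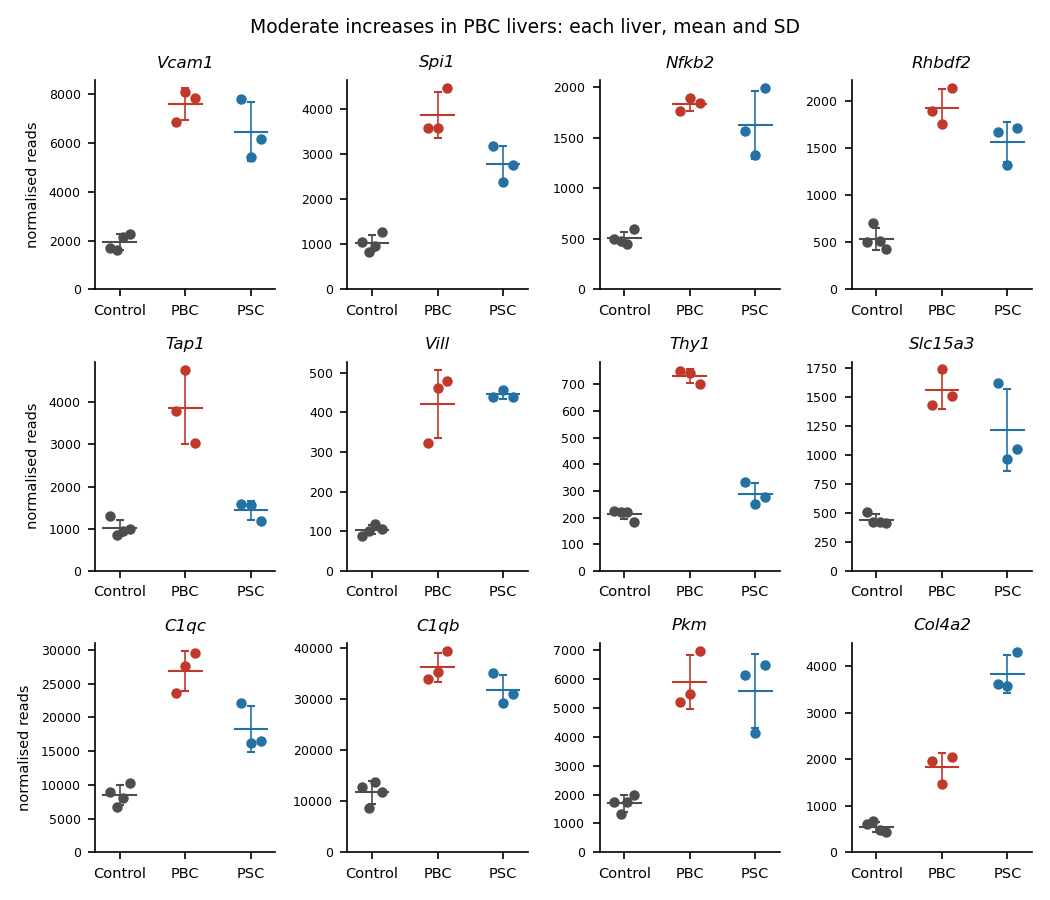
Normalised reads (linear axis) per liver for the 12 leading moderate increases in control, PBC and PSC groups. Points are livers, the line the mean and the bar the SD. The genes were chosen so that the 3 PBC livers lie above all 4 controls, and the PSC livers lie below the PBC livers for Tap1 and Thy1 and above them for Col4a2.

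The 12 leading moderate decreases, ranked in the same way and also chosen for no overlap, held enzymes, a transporter, a receptor and 4 zinc finger genes. P2ry1, a receptor for ADP, measured 832, 895, 945 and 1045 in controls and 376, 389 and 315 in PBC, a change of -1.37 (SE 0.19 and adjusted p = 0.000809). Slc17a8, a vesicular glutamate transporter, went from 234, 258, 266 and 286 to 74.6, 115 and 46.5 (-1.81, SE 0.31 and adjusted p = 0.00291). Nmrk1, which phosphorylates nicotinamide riboside, went from 1696, 1448, 3096 and 3625 to 771, 816 and 482 (-1.77, SE 0.31 and adjusted p = 0.00329). PBC 9 was the lowest PBC liver for all 3 genes. Qpct, which cyclises N-terminal glutamine, fell by 1.25 (SE 0.21 and adjusted p = 0.003), the dehydrogenase Sdr9c7 by 1.06 (SE 0.19 and adjusted p = 0.00426), the acyltransferase relative Keg1 by 1.01 (SE 0.19 and adjusted p = 0.00533) and Nrep by 1.56 (SE 0.29 and adjusted p = 0.00502), beside Cyp2c39 above. The zinc finger genes Zfp882, Zscan21, Zfp770 and Zfp748 fell by 1.45, 1.26, 1.15 and 1.22 (SE 0.26, 0.23, 0.21 and 0.23; adjusted p = 0.00405, 0.00458, 0.00469 and 0.0049). All 12 were robust. P2ry1 stood at 314 to 389.8 in PSC livers, Slc17a8 at 75.6 to 102 and Nmrk1 at 1050.1 to 1152.

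**Figure D5:**
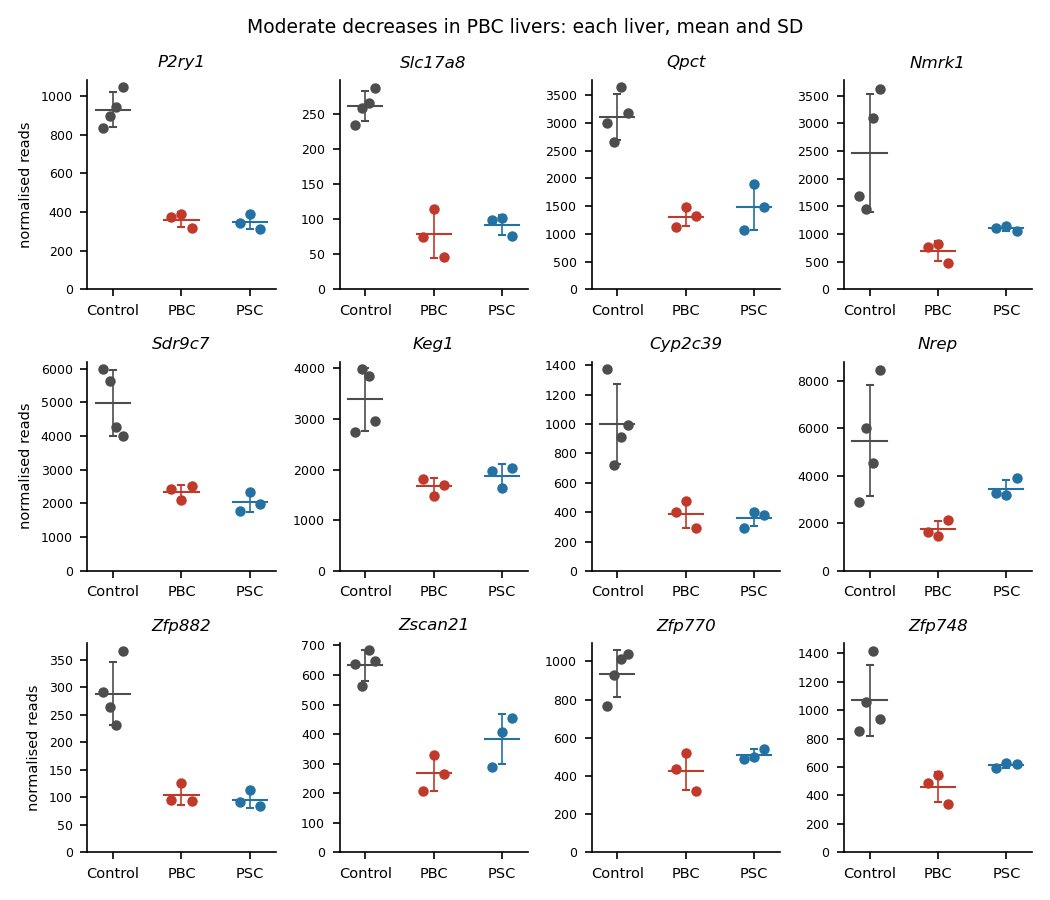
Normalised reads (linear axis) per liver for the 12 leading moderate decreases in control, PBC and PSC groups. Points are livers, the line the mean and the bar the SD. The genes were chosen so that the 3 PBC livers lie below all 4 controls.

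Growth and stress genes were called higher in part, to differing extents by list, to be read against 7.94% of all genes tested. Mki67, a marker of cycling cells, went from 33.7, 33.4, 35.8 and 15.3 to 191, 98.8 and 203 (2.44, SE 0.44 and adjusted p = 0.00419), the robust one among 5 of 24 mitosis genes that were higher. The mitosis list had a median of 0.98, and 23 of its 24 changes were above 0. Its median was 0.90, 0.76 and 1.37 in PBC 7, 8 and 9, and at most 0.33 in a control. The mitosis count was 1 without PBC 7 or PBC 9, 2 without control 2, 3 or 4 or PSC 14, 3 without control 1 and 8 without PBC 8. Of 18 p53 target and senescence genes 4 were higher, all robust, with a median of 0.42, and without PBC 8, 1 was lower. The cell cycle inhibitor Cdkn2a went from 5.18, 5.13, 10.2 and 5.55 to 127, 76.5 and 139.7 (3.94, SE 0.48 and adjusted p = 0.000316; 3.35 with a pseudocount of 5). The stress hormone Gdf15 went from 1102, 2020.4, 2876 and 471 to 6769, 28953 and 17819 (3.52, SE 0.58 and adjusted p = 0.00236), and PBC 7 was the lowest PBC liver. The p53 targets Phlda3 and Pmaip1 rose by 1.19 (SE 0.25 and adjusted p = 0.00919) and 1.41 (SE 0.32 and adjusted p = 0.0148). Of 16 targets of the antioxidant factor NRF2, 2 were higher, both robust: haem oxygenase Hmox1 (1.63, SE 0.29 and adjusted p = 0.00372) and G6pdx of the pentose phosphate pathway (1.17, SE 0.24 and adjusted p = 0.00813). Of 27 genes of translation initiation and tRNA charging 6 were higher, 2 robust, Vars (1.49, SE 0.25 and adjusted p = 0.0029) and Wars (0.94, SE 0.17 and adjusted p = 0.00472), which charge tRNAs with valine and tryptophan, and 1, the cap-binding protein Eif4e, was lower (-0.69, SE 0.20 and adjusted p = 0.0468). The higher count was 2 without control 1, PBC 7 or PBC 9, 3 without control 3 and 12 without PBC 8, and the Eif4e call was lost without any 1 library except control 2 and PBC 8. Phgdh, which starts serine synthesis, rose by 2.12 (SE 0.38 and adjusted p = 0.0041). None of 25 cytosolic ribosomal protein genes was called in limma, and none had an unadjusted p below 0.05 or was called in edgeR or DESeq2. Of 24 DNA replication genes 3 were higher and 1 lower, and of 25 ribosome biogenesis genes 3 were higher, with no robust call in either list. With 1 library left out, the higher counts ran from 0 to 6 and from 0 to 5. Of 18 heat shock and chaperone genes none was called in limma, edgeR or DESeq2.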

How the data were processed

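Total RNA (1 µg, RNA integrity number above 8) from 10 livers was made into stranded mRNA libraries with the TruSeq kit and sequenced as 75-base pairs on a NextSeq 500, per the labels' protocols. The submitters' processing notes name FastQC, STAR 2.4.0, SAMtools, Picard, DESeq2 and mm10. For the counting tool, its strand setting and its handling of reads shared by near-identical genes: not given in the sources used here. Deposited values (unit: signal) are gene counts that the authors divided by DESeq2 size factors. Stepwise values gave back whole reads for 100% of values (tolerance 0.1 read), which give the depths printed and serve edgeR and DESeq2.

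Changes were fitted with limma 3.58.1 (R 4.3.3) with an intensity trend on log2(deposited value + 1), over all 10 libraries in 1 fit, for genes at 10 or more in at least 3 of the 7 compared columns, with Benjamini-Hochberg adjustment over the 17712 genes tested; a call needs an adjusted p below 0.05. edgeR 4.0.16 (quasi-likelihood, 1243 higher and 365 lower) and DESeq2 1.42.0 were run as alternatives on the recovered reads, beside other scalings, pseudocounts (0.5 and 5), filters (none and 50), sample weights, the 7 livers alone, and each library left out. The code was tested on simulated data.

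The comparison, its gene lists, its cell markers and the promoter motifs were chosen with earlier results of these data known. Named genes are 24 fixed genes, the 12 moderate increases and 12 decreases with the smallest adjusted p that did not overlap, up to 4 called genes per list and direction (robust calls first), called genes against a list's direction, and up to 2 uncalled genes of highest mean per list. C3, Pklr, Dbp, Gbp3, Gbp5, Gbp7, Irgm1, Nfkbia, Cxcl2 and H2-Oa were added after their values were seen. Promoter stretches come from RefSeq (GRCm38.p6), from the 250 bases before each start; genes without an entry are not shown. Some results are not reported here.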

Additional observations from a re-analysis of the deposited data

Results flagged for a closer look

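In 12 of the 211 genes named or examined here, 1 of the 4 control livers stood far from the other 3 (Dixon's test of the gap over the range, at its 95% critical value). Chance alone gives about 1 such gene in 20. Control 3 was lowest for Stat3 (1012, others 1842 to 1989.5), Il6ra (163) and Stat6 (1824, others 3058 to 3254), and highest for Osm (5.11) and Cdkn2a (10.2). Control 4 was lowest for Slco1a1 (159.7, others 4304 to 6374), Mki67 (15.3) and Thy1 (183, others 221 to 224). Control 2 was lowest for Krt19 (100.1, others 205 to 234) and Casp1 (359, others 619 to 639). Control 1 was lowest for Gp9 (2.59) and highest for Slc15a3 (510.4, others 417 to 426). Of these 12 genes, Stat3, Krt19, Mki67, Thy1, Slc15a3, Osm, Gp9, Cdkn2a and Casp1 were called higher in PBC livers, and Il6ra, Slco1a1 and Stat6 were not called.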

How the results depend on the processing

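No paired analysis was possible because the groups share no replicate numbers. Over the 166 called genes named here no alternative reversed a direction, and each alternative kept 141 (without PBC 9) to 166 of the calls (DESeq2 and a pseudocount of 5), counted among 161 genes under the filter of 50. The counts of calls moved more. Higher genes (1407) numbered 776 with the 7 livers alone, 857 under equal totals and 2535 with sample weights, and 685 to 1826 with 1 library left out. Lower genes (443) numbered 917 in DESeq2, 96 with the 7 livers alone and 1903 with sample weights, and 66 to 1575 with 1 library left out. Moderate increases (1067) numbered 508 with the 7 livers alone, 606 under equal totals and 1864 with sample weights, and 450 to 1448 with 1 library left out. Moderate decreases (389) numbered 790 in DESeq2, 78 with the 7 livers alone, 249 without a filter and 1562 with sample weights, and 40 to 1346 with 1 library left out. Genes higher than in PSC livers (197) numbered 589 in DESeq2, 126 under equal totals and 686 with sample weights, and 57 to 245 with 1 library left out; genes lower than in PSC livers (183) numbered 560 in DESeq2 and 624 with sample weights, and 39 to 254 with 1 library left out. Apart from the smaller number of livers in the fits that leave some out, the cause of these shifts was not tested.

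The sign changed in 10 genes that were not called. Il6ra was -0.041 in DESeq2, -0.014 in edgeR, -0.036 under equal totals and -0.43 with sample weights, and -0.28 to 0.27 with 1 library left out (below 0 without control 3 or PBC 8). Isg15 was -0.028 in DESeq2, -0.020 in edgeR and -0.38 with sample weights, and -0.11 to 0.59 with 1 library left out (below 0 without control 4 or PBC 7). Mbl2 was -0.044 in DESeq2, -0.029 under TMM, -0.032 in edgeR and -0.12 under equal totals, and -0.019 to 0.043 with 1 library left out (below 0 without control 3 or PBC 7). Gbp7 was -0.035 under TMM, -0.12 under equal totals and -0.94 with sample weights, and -0.80 to 0.59 with 1 library left out (below 0 without control 2, control 3 or PBC 8). Dbp was 0.33 with sample weights and -2.21 to 0.40 with 1 library left out (above 0 without control 4). Slc10a1 was 0.036 with sample weights and -0.37 to 0.14 with 1 library left out (above 0 without PBC 8). Xbp1 was 0.0056 with sample weights. With 1 library left out, Lifr was -0.49 to 0.066 (above 0 without control 2 or PBC 9), Igf1 -0.46 to 0.020 and Zap70 -0.69 to 0.016 (both above 0 without PBC 8). The median change of all genes was 0.0035 as deposited, -0.04 under TMM and -0.12 under equal totals. Low levels limit the fold of Osm, Nos2, Gp1bb and Cxcl2, whose control values rest on few reads.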

Other observations

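Zinc finger genes leaned lower in PBC livers, a pattern picked out after values were seen. Of 339 tested genes described as zinc finger proteins, 47 were lower and 8 higher, where 2.50% of all genes tested were lower and 7.94% higher. All 47 lay between 1.5- and 4-fold, and 71.7% of the 339 had changes below 0 (49.7% of all genes). Their median change was -0.37, and in PBC 7, 8 and 9 it was -0.32, -0.13 and -0.65. The count of lower genes was 3 without PBC 9, 101 without PBC 8, 24, 21 and 31 without controls 1, 3 and 4, 22 without PBC 7 and 28 to 32 without any 1 PSC library. Robust calls made up 3 of the 47, Zfp882, Zfp770 and Zfp748; Zscan21 is not described in those words and is not among the 339.

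Other gene lists were called in part, against 7.94% of all genes tested that were higher. Of 19 TNF superfamily genes 4 were higher, 2 robust and 2 without PBC 7 or PBC 9, with a median of 0.97. Of 15 periportal hepatocyte genes 4 were higher, none robust, with a median of 0.77, and 2 without control 1 or 3 and 0 without PBC 7 or PBC 9. Of 15 immediate early genes 3 were higher, 1 robust and 5 without control 2, with a median of 1.504.

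A gene model without a symbol, GSMG0068265 (chr5:105862522-105863781, mm10), had 0 reads in all 3 PBC livers, 698 to 2245 normalised reads in controls and 599 to 2085 in PSC livers. Against a floor of 3 reads over the PBC group it was 646-fold lower than in controls (limma, adjusted p = 7.99e-08). Every library held more models at 2 reads than at 1 read (2271 and 547 in control 1). Whether both mates of a pair were counted was not tested, and a higher floor would give a smaller fold. The labels name the strain but no substrain, and whether the groups shared one was not tested. A model on chromosome 11, GSMG0069224 (chr11:83753091-83753963), was also at 0 in all PBC livers, with 15.4 to 44.0 in controls and 22.5 to 52.6 in PSC livers. At the same floor it was 14.5-fold lower than in controls (limma, adjusted p = 0.000517). Among all models at 10 or more in every other library, 2 were at 0 in every PBC liver, and the corresponding count was 0 for controls and 0 for PSC livers. With at least 5 in every other library the counts were 3, 2 and 1.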
